A study of Mus musculus with 11 samples.

Results

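The 10 genes described here are the transcription factor gene Nfe2l2, which encodes NRF2, its inhibitor Keap1 and 8 antioxidant target genes, Nqo1, Gclc, Gclm, Hmox1, Txnrd1, Srxn1, Slc7a11 and Gsr. The rule that takes them uses gene names and no measured value, and it picks them from 31518 genes listed for mouse embryonic stem cells (mESCs) and 29450 listed for mouse embryonic fibroblasts (MEFs), and each has 1 row in each table. The study removed ATXN7L3, an adaptor that the deubiquitylation (DUB) modules need to take monoubiquitin off histone H2B, and sequenced poly(A)+ RNA from 11 libraries, which were 2 WT (Atxn7l3+/+) and 3 Atxn7l3-/- mESC libraries and 3 WT and 3 Atxn7l3-/- MEF libraries. All came from DBA/2 x C57BL/6 mice, each mESC line from its own blastocyst and each MEF culture from its own E10.5 embryo freed of head and gastrointestinal tract, so 1 line or culture stands for 1 embryo, and the labels do not give how far developed it was. The null allele is constitutive and was obtained with a FLP-recombinase strain. The mESCs spent 2 passages on feeders and then grew without them with leukaemia inhibitory factor, 15% foetal calf serum (FCS), PD0325901 at 1 µM and CH99021 at 3 µM, in a medium that by the study's methods held β-mercaptoethanol, a thiol reductant. The MEFs grew in DMEM with 10% FCS. Cell type, culture medium and derivation therefore cannot be told apart.

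In unstressed cells KEAP1 binds NRF2 and brings it to a CUL3 ubiquitin ligase, which leads to its degradation. Oxidants and electrophiles modify cysteines of KEAP1, NRF2 accumulates, pairs with small MAF proteins and binds antioxidant response elements (AREs) near its targets, while BACH1 competes for the same elements at Hmox1 and other genes. The targets act in linked branches. SLC7A11 imports cystine, GCLC and GCLM form the ligase of the rate-limiting step of glutathione synthesis, GSR returns oxidized glutathione to its reduced form, TXNRD1 does the same for thioredoxin, SRXN1 repairs over-oxidized peroxiredoxins, NQO1 reduces quinones and HMOX1 breaks down heme.

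Short stretches of promoter sequence are shown for the members that hold the core of the ARE close to a transcription start, because the members are grouped by their regulation through this element. RefSeq promoter windows of the GRCm38.p6 build, from 250 bases before to 50 bases after a start, were at hand for 7 of the 10 members, as 9 windows, 3 of them for Txnrd1. The letters TGACNNNGC, searched on both strands, stood in 4 of the 9 windows and in 12.4% of all 32851 windows. They were in the windows of Nfe2l2, Gclm and Srxn1 and in 1 of the 3 windows of Txnrd1. Each line reads 5′ to 3′ on the minus strand of the chromosome, with the match in capitals and 10 bases on either side.
Nfe2l2: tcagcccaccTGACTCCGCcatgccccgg
Gclm: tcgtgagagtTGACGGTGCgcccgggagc
Txnrd1: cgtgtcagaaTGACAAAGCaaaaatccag
Srxn1: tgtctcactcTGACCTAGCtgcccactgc
The Nfe2l2 stretch lies at chr2:75704885-75704913 and its match begins 240 bases before the RefSeq start. All distances here are counted from RefSeq starts, which can differ from the gene coordinates given below. The Gclm stretch lies at chr3:122245413-122245441, with the match 134 bases before the start. That of Txnrd1 lies at chr10:82859104-82859132, with the match 92 bases before a start inside the gene, and that of Srxn1 at chr2:152105542-152105570, where the match begins at base 29 of the transcript. The letters TGACTCA, which bind AP-1 factors and overlap with many AREs, stood in 5.2% of all windows and, among the members, in the Srxn1 window at 2 places, 102 and 45 bases before the start. These are shown because Srxn1 is among the members whose change differed between the cell types.
Srxn1, chr2:152105412-152105438: cacagcgtggTGACTCAggccctccga
Srxn1, chr2:152105469-152105495: gcccggccgcTGACTCAgggtgaattt
A match says only that these letters are in the window, and AREs farther from a start were not searched.

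The library totals ranged from 34515342 to 49602605 counts, and every member had at least 16 counts in every library, so that all 10 passed the filter on low counts in both cell types. Atxn7l3, the targeted gene, was at 222 and 223 counts-per-million (CPM) in WT mESCs and at 3.91, 1.79 and 0.976 CPM in Atxn7l3-/- mESCs. In MEFs it was at 79.7, 104 and 92.9 CPM in the WT libraries and at 49.2, 49.5 and 67.3 CPM in the libraries labelled Atxn7l3-/-, a log2 fold change of −0.74 (edgeR, adjusted p = 0.0715), or −0.29 after a correction for GC content, and the label is kept for these libraries throughout. These values are RNA reads over the whole gene and do not measure the protein. Fibroblast markers separated the cell types (10 of 10 higher in WT MEFs) and so did pluripotency markers (6 of 6 tested lower). Libraries stood apart in sex-linked genes. Replicate 3 of the WT MEFs had 13777 counts of Xist against at most 28 in any other MEF library, and Uty was at 0.601 and 0.119 CPM in replicates 1 and 2 of the Atxn7l3-/- mESCs against at least 19.7 CPM in the other mESC libraries. The members are all autosomal, but no fit held sex as a term, and its part in their values was not tested. In bulk samples such as these, fewer cells of a type and less RNA per cell cannot be told apart.

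The level of each member in WT cells was read from the authors' normalized reads per kb of transcript, which allow genes to be compared within a library but were normalized separately in each cell type. In WT mESCs Gsr, Hmox1, Srxn1 and Txnrd1 led, with means between 7403 and 8073 normalized reads per kb. Below them stood Gclc, Nqo1, Gclm and Nfe2l2, with means between 3375 and 4401, although the range of Srxn1 (4489 to 10407) overlapped those of Gclc and Nqo1. Keap1, at 461 and 539, and Slc7a11, at 63.5 and 83.9, were below every library of the members above them. In WT MEFs Hmox1 led with a mean of 6769 (range 6222 to 7381), followed by Srxn1 with 5788. From Hmox1 down to Gsr, each gene overlapped its neighbour in the order. Gclc spread most, from 1365 in replicate 2 to 7151 in replicate 1. Slc7a11 was lowest in all 4 groups, with a mean of 148 in WT MEFs. The order depends on the transcript length used, which was 446 bases for Srxn1 although its annotated exons cover 2820 bases.

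Between WT MEFs and WT mESCs, 1 member was higher, 2 were lower and 7 did not pass the test, against 26.8% of all 19326 genes called higher and 27.1% called lower at the adjusted p threshold of 0.05 (edgeR's quasi-likelihood test, adjusted over these genes by Benjamini-Hochberg). The members' median log2 fold change was −0.2, and that of all genes was 0. Levels in this comparison are CPM normalized over all 11 libraries. Nqo1 (chr8:107388225-107403206, minus strand) was at 190 and 115 CPM in WT mESCs and at 23, 24.7 and 36.2 CPM in WT MEFs, with no overlap. On the log2 scale the change was −2.44 with a standard error of 0.51 (edgeR adjusted p = 0.00236). Gsr (chr8:33652523-33698163, plus strand) was at 121 and 152 CPM in WT mESCs and at 31, 41.5 and 37.1 CPM in WT MEFs, again without overlap, and changed by −1.9 on the log2 scale with a standard error of 0.3 (edgeR adjusted p = 0.00044). The inhibitor Keap1 (chr9:21229730-21239361, minus strand) went the other way, with 35.5 and 30.9 CPM in WT mESCs and 44.4, 83.7 and 59.5 CPM in WT MEFs. Its log2 fold change was 0.91 (adjusted p = 0.0413), and the call was lost without either WT mESC library, without replicate 2 or 3 of the WT MEFs, without replicate 1 of the Atxn7l3-/- MEFs, and under several other settings, with adjusted p between 0.0516 and 0.198. Txnrd1 stood at −0.85 (adjusted p = 0.0539). It passed without WT MEF replicate 3, the library with high Xist (0.0241), and without replicate 2 of the Atxn7l3-/- mESCs (0.0468). It also passed with RLE (0.0482) or upper-quartile (0.0261) normalization and with at least 10 counts in every library (0.0395). In these settings 3 members were lower, against 23.4% to 29.3% of all genes. For Nfe2l2, Gclc, Gclm, Hmox1, Srxn1 and Slc7a11 the 95% confidence interval of the log2 fold change held 0, being narrowest for Nfe2l2 (−1 to 0.33) and widest for Slc7a11 (−0.71 to 3.07).

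**Figure D1:**
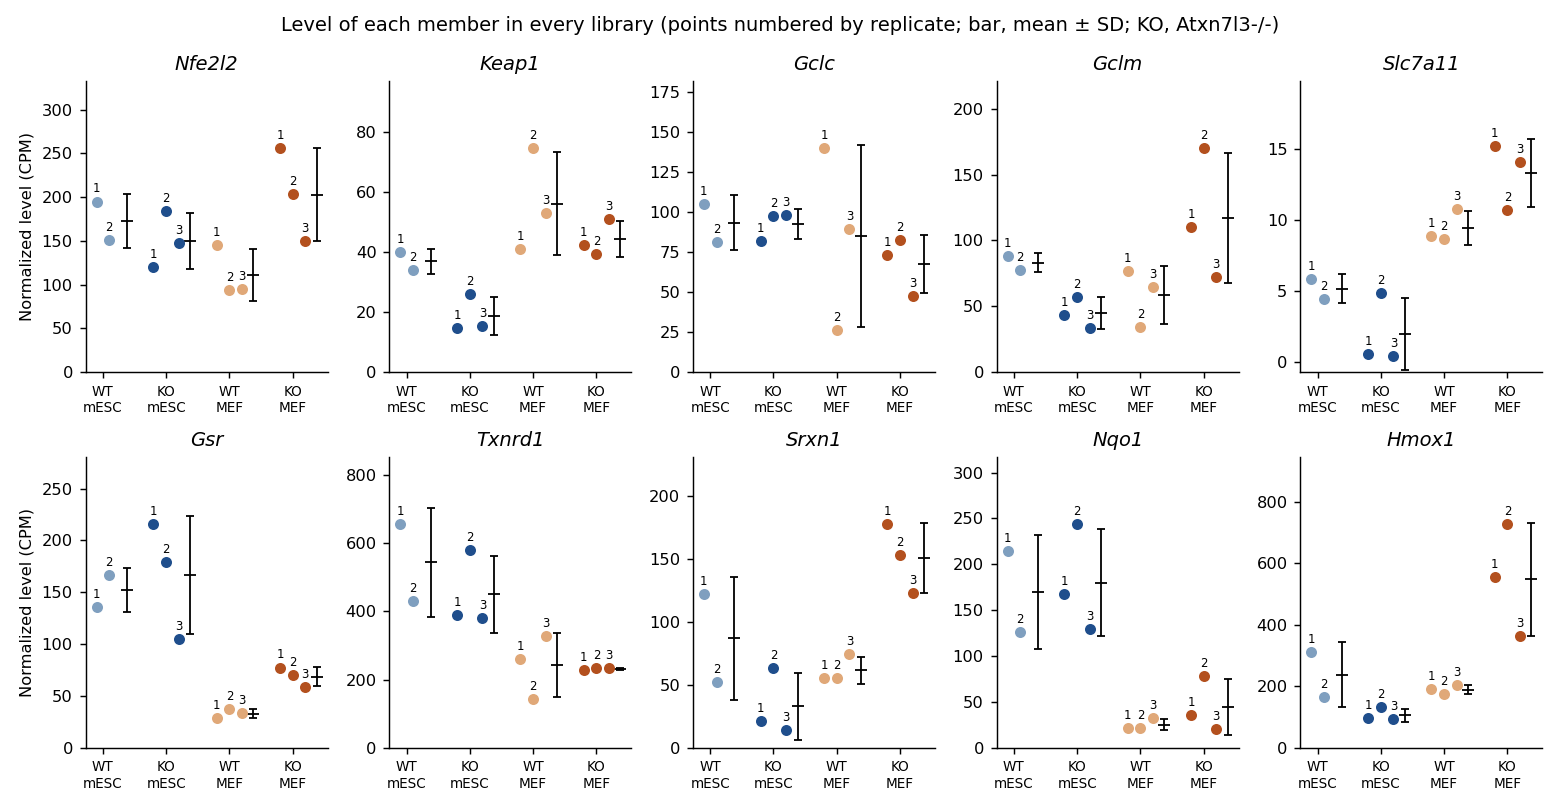
Normalized level in CPM (linear axis, normalized by TMM within each cell type) of the 10 members in each of the 11 libraries. Points carry the replicate number of the library and the bar beside them is the mean ± SD of the group. The Atxn7l3-/- MEF points of Hmox1, Srxn1 and Gsr lie above all WT MEF points, and in mESCs the Atxn7l3-/- points of Hmox1, Gclm and Keap1 lie below both WT points.

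The effect of the knockout in mESCs was first examined. None of the 10 members passed an adjusted p of 0.05 (edgeR's quasi-likelihood test), whereas 6.96% of the 17800 genes tested did, 3.08% higher and 3.88% lower in Atxn7l3-/- mESCs. At an unadjusted p under 0.05, Hmox1, Gclm and Keap1 were lower and no member was higher, against 14.8% of all genes lower and 15.0% higher at this level. DESeq2 called these 3 genes lower, and 5.50% of the 31107 genes with any count. With no filter on low counts 4 members were called lower, and 5.16% of the same 31107 genes. This set holds genes of low count that the filter leaves out, so these shares are not on the base of the 17800 genes. With a correction for GC content 1 member was called lower, Hmox1 (4.28% of the 17800 genes). The fitted change was below 0 for 8 of the 10 members and for 47.7% of all genes, with a median log2 fold change of −0.59 over the members and 0.04 over all genes. The Atxn7l3-/- libraries lay below both WT libraries for Hmox1, Gclm and Keap1, as they did for 25.1% of all genes.

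Of the regulators, Nfe2l2 (chr2:75675513-75704641, minus strand) was at 195 and 151 CPM in WT and at 120, 184 and 147 CPM in Atxn7l3-/- mESCs. The groups overlapped, and the log2 fold change was −0.2 (95% confidence interval −0.75 to 0.34). Keap1 was at 39.9 and 34 CPM in WT and at 14.7, 26 and 15.3 CPM in Atxn7l3-/- mESCs, with every knockout library below both WT libraries. Its log2 fold change was −0.98 (95% confidence interval −1.7 to −0.26) at an edgeR adjusted p of 0.0879. Of the exon bases of Keap1, 10.9% overlap the antisense gene Gm16754, and of those of Gclm, 4.71% overlap Gm17494 on the other strand and 3.88% the pseudogene Gm6061 on the same strand. The strand setting of the counting was not given in the sources used here, so reads of these overlaps cannot be assigned to either gene.

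Among the genes of glutathione synthesis, Gclc (chr9:77754535-77794485, plus strand), the catalytic subunit of glutamate-cysteine ligase, was at 105 and 81.1 CPM in WT and at 81.8, 97.8 and 98.5 CPM in Atxn7l3-/- mESCs, with a log2 fold change of −0.01 (95% confidence interval −0.48 to 0.46). Gclm (chr3:122245557-122270732, plus strand), the modifier subunit, was at 88.4 and 77.8 CPM in WT and at 43.4, 57.3 and 33.1 CPM in the knockout. The groups overlapped for Gclc and stood apart for Gclm, whose log2 fold change was −0.9 (95% confidence interval −1.49 to −0.3) at an edgeR adjusted p of 0.072. Slc7a11 (chr3:49892526-50443614, minus strand), the cystine transporter, was expressed at a low level, with 274 and 196 counts in WT and 20, 206 and 16 counts in the knockout. In CPM these are 5.89 and 4.44 against 0.601, 4.91 and 0.422. Replicate 2 of the knockout lay within the WT range and the other replicates far below it, and the log2 fold change was −1.38 (95% confidence interval −3.61 to 0.86).

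In the recycling branch, Gsr was at 136 and 167 CPM in WT and at 216, 179 and 105 CPM in Atxn7l3-/- mESCs, with a log2 fold change of 0.14 (95% confidence interval −0.57 to 0.85). Txnrd1 (chr10:82833951-82897712, plus strand), thioredoxin reductase, was at 657 and 432 CPM against 390, 581 and 380 CPM, a log2 fold change of −0.27 (95% confidence interval −0.91 to 0.37). For both genes the WT and knockout ranges overlapped. Srxn1 (chr2:152105516-152111376, plus strand) was at 122 and 52.3 CPM in WT and at 21.1, 63.6 and 14.4 CPM in the knockout. Replicate 2 lay between the WT libraries and the other replicates below both, and the log2 fold change was −1.4 (95% confidence interval −2.83 to 0.04).

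Of the detoxifying genes, the quinone reductase gene Nqo1 was at 214 and 126 CPM in WT and at 168, 244 and 129 CPM in Atxn7l3-/- mESCs, with a log2 fold change of 0.08 (95% confidence interval −0.67 to 0.84). Hmox1 (chr8:75093621-75100589, plus strand), the inducible heme oxygenase, was at 312 and 164 CPM in WT and at 96, 131 and 92.7 CPM in the knockout. All 3 knockout libraries of Hmox1 were below both WT libraries, which were themselves 1.9-fold apart. Its log2 fold change was −1.16 (95% confidence interval −1.85 to −0.47) at an edgeR adjusted p of 0.0581, and it ranged from −1.55 to −0.63 as single libraries were left out.

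Without replicate 2 of the Atxn7l3-/- mESCs, 4 members were called lower, Slc7a11 at −3.33 (edgeR adjusted p = 0.0278), Keap1 at −1.29 (adjusted p = 0.0325), Gclm at −1.12 (adjusted p = 0.0344) and Srxn1 at −2.29 (adjusted p = 0.0355), and Hmox1 stood at −1.33 (adjusted p = 0.0501). The share of all genes called lower was then 6.75%.

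The mESC libraries also differed from each other across the members together. Replicate 1 of the WT mESCs was above replicate 2 for 9 of the 10 members, Gsr being the exception. Replicate 2 of the Atxn7l3-/- mESCs was the highest knockout library for 8 members and replicate 3 the lowest for 7. Relative to the WT mean of each member, the median over the 10 members was −0.74 on the log2 scale in replicate 1 of the Atxn7l3-/- mESCs, 0 in replicate 2 and −0.9 in replicate 3, and it was 0.18 and −0.21 in the WT libraries. A log2 ratio of −1 or less was reached by 4 members in replicate 1 of the knockout, by 5 in replicate 3 and by none in replicate 2. The summed fibroblast markers were higher in the Atxn7l3-/- mESCs. Their sum was 29.2 and 109 CPM in the WT libraries and between 319 and 438 CPM in the Atxn7l3-/- libraries. Col1a1 and Col1a2 made most of the knockout sums, at 165 to 211 and 96.7 to 147 CPM. Of the markers, 9 of the 9 tested had a fitted change above 0, 1 of them called, while the groups overlapped for Thy1, Pdgfra and Pdgfrb. In each WT library 1 of the 10 was at 0. The summed pluripotency markers ranged from 4933 to 5661 CPM in WT and from 5245 to 5964 CPM in Atxn7l3-/- mESCs. This sum joins markers that went both ways. Of the 8, 3 had a fitted change above 0 and 5 below, with a median log2 fold change of −0.36, and none was called (edgeR). The part of cells with such markers in the members' values was not tested.

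**Figure D2:**
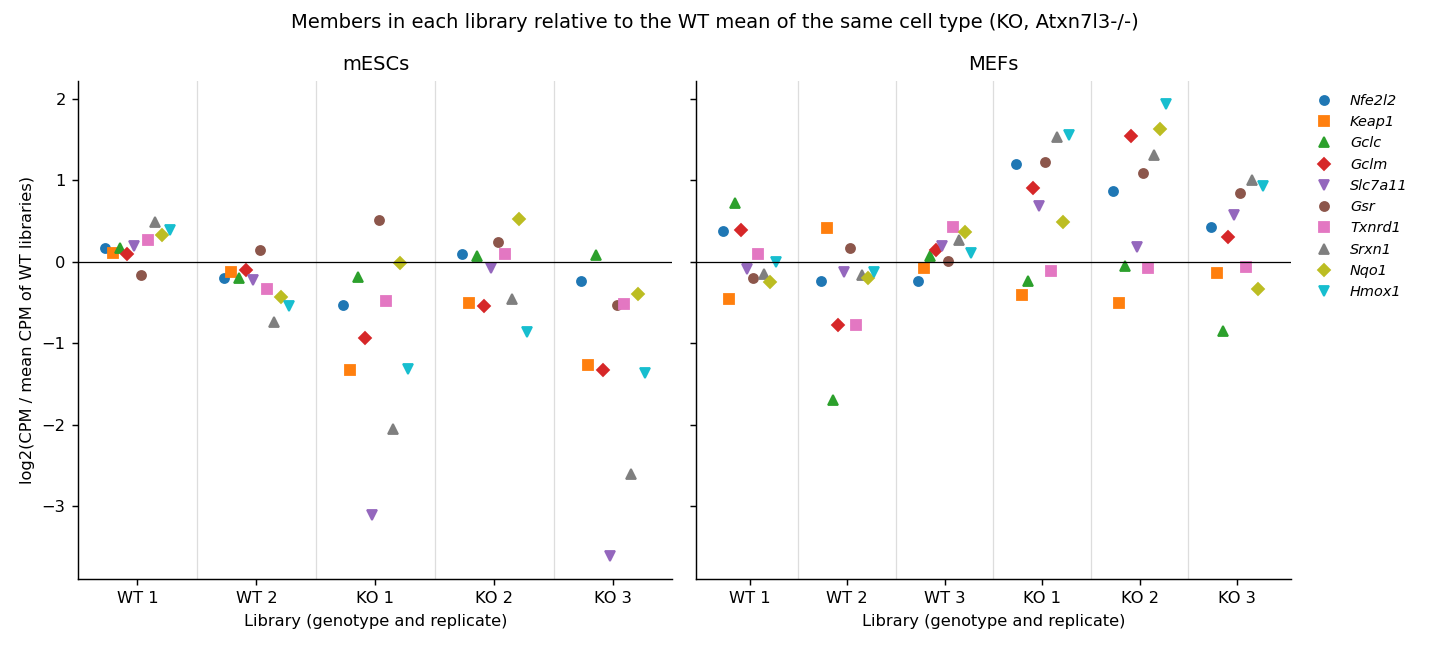
Level of each member in each library as log2 of its CPM over the mean CPM of the WT libraries of the same cell type, for mESCs (left, 5 libraries) and MEFs (right, 6 libraries). Among the Atxn7l3-/- mESC libraries, replicate 2 has its median member at 0 while replicates 1 and 3 have theirs at −0.74 and −0.9, and the Atxn7l3-/- MEF libraries have medians of 0.8, 0.98 and 0.36.

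In MEFs, 3 of the 10 members were higher in the Atxn7l3-/- libraries and none was lower at the adjusted p threshold of 0.05 (edgeR's quasi-likelihood test), against 5.01% of the 15958 genes tested called higher and 4.39% called lower. No member was lower at an unadjusted p under 0.05 (17.8% of all genes) or by DESeq2 (7.96% of the 29450 genes with any count). The 3 genes were Hmox1, Srxn1 and Gsr. At an unadjusted p under 0.05, Nfe2l2 and Gclm were higher as well, 5 of 10 members against 14.6% of all genes. The fitted change was above 0 for 7 members and for 47.5% of all genes, and the medians were 0.85 over the members and −0.06 over all genes. The knockout libraries lay above all WT libraries for Nfe2l2, Hmox1, Srxn1 and Gsr, as they did for 20.0% of all genes.

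Nfe2l2 was at 145, 94.1 and 94.9 CPM in WT and at 256, 204 and 150 CPM in Atxn7l3-/- MEFs. The knockout libraries were all higher, although the highest WT and the lowest knockout library were close. The log2 fold change was 0.87 (95% confidence interval 0.19 to 1.55, edgeR adjusted p = 0.095), with an adjusted p of 0.045 in 1 fit of all 11 libraries, and 0.51 (adjusted p = 0.197) with a correction for GC content. Keap1 was at 40.9, 74.7 and 53.1 CPM in WT and at 42.4, 39.5 and 51 CPM in the knockout, with overlapping groups and a log2 fold change of −0.34 (95% confidence interval −0.97 to 0.29) that turned to 0.4 with this correction.

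In glutathione synthesis no gene passed the test in MEFs (edgeR), with Gclm alone at an unadjusted p under 0.05. Gclc was at 140, 26.4 and 89.3 CPM in WT and at 72.9, 82.3 and 47.4 CPM in the knockout, a log2 fold change of −0.34 (95% confidence interval −1.67 to 0.99). Gclm was at 76.6, 34.2 and 64.7 CPM in WT and at 110, 170 and 71.9 CPM in the knockout. Replicate 3 of the knockout lay within the WT range of Gclm, and the log2 fold change was 1 (95% confidence interval 0.03 to 1.98, edgeR adjusted p = 0.147). Replicate 2 of the WT MEFs was the lowest of all 6 libraries for both ligase subunits. Slc7a11 was at 8.86, 8.67 and 10.8 CPM in WT and at 15.2, 10.7 and 14.1 CPM in the knockout, a log2 fold change of 0.49 (95% confidence interval −0.18 to 1.17).

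In the recycling branch, Gsr, glutathione reductase, was at 28.6, 37 and 33.1 CPM in WT and at 77.4, 69.9 and 58.9 CPM in Atxn7l3-/- MEFs. The groups were well apart, with means of 32.9 ± 4.24 and 68.7 ± 9.33 CPM (SD, n = 3 each), and the increase was 2.09-fold (log2 fold change 1.06, standard error 0.2, edgeR adjusted p = 0.0306). Srxn1, the sulfiredoxin that reactivates peroxiredoxins, was at 55.6, 55.1 and 74.3 CPM in WT and at 178, 153 and 123 CPM in the knockout. These groups did not overlap either, and the increase was 2.45-fold (log2 fold change 1.29, standard error 0.23, edgeR adjusted p = 0.0248). Txnrd1 was at 261, 143 and 329 CPM in WT and at 227, 233 and 234 CPM in the knockout, all within the WT range, a log2 fold change of −0.08 (95% confidence interval −0.83 to 0.67).

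Hmox1 was at 190, 174 and 205 CPM in the WT MEFs and at 554, 728 and 362 CPM in the Atxn7l3-/- MEFs. The WT libraries were close together, and the lowest knockout library was above all of them. The mean rose from 189 ± 15.5 to 548 ± 183 CPM (SD, n = 3 each), which was a 2.89-fold increase (log2 fold change 1.53, standard error 0.3, edgeR adjusted p = 0.0322). Nqo1 spread widely in the knockout, with 35.3, 78.1 and 20.1 CPM against 21.2, 22 and 32.4 CPM in WT, a log2 fold change of 0.82 (95% confidence interval −0.35 to 1.99).

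These 3 calls were lost without most single libraries, while the calls over all genes became fewer as well (5.01% higher with every library kept). Hmox1 and Srxn1 lost theirs without any single one of the 3 WT libraries or of replicates 1 and 2 of the Atxn7l3-/- MEFs (edgeR adjusted p between 0.0635 and 0.0918 for Hmox1 and between 0.0541 and 0.0882 for Srxn1), and Gsr without replicate 1 or 3 of the WT MEFs or replicate 1 or 2 of the Atxn7l3-/- MEFs (adjusted p between 0.0686 and 0.112). Over all genes the share called higher was 0.731% to 2.85% without these libraries and 5.90% without replicate 3 of the knockout, the library without which all 3 members were called. The log2 fold changes stayed between 1.28 and 1.78 for Hmox1, 1.17 and 1.47 for Srxn1 and 0.97 and 1.19 for Gsr. Without WT replicate 3, the library with high Xist, they were 1.61, 1.47 and 1.09. Across 15944 genes, which are not independent replicates, the log2 fold change in MEFs was lower the higher the GC content (Spearman rho = −0.393), and Srxn1 with 59.8% and Keap1 with 58.5% had the highest GC content of the members. Correcting each library for its trend over GC content raised the log2 fold change of Srxn1 to 2.23 (edgeR adjusted p = 0.0197). With the replicate block added to this correction, Hmox1 and Gsr were at adjusted p of 0.054 and 0.0541, so that 1 member, Srxn1, was called higher against 4.91% of all genes. In 1 fit of all 11 libraries, Srxn1 was at an adjusted p of 0.0928.

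The knockout libraries also differed among themselves. Replicate 3 of the Atxn7l3-/- MEFs was the lowest knockout library for 7 members, with a log2 ratio to the WT mean of 1 or more for 1 member, against 4 members in replicate 1 and 5 in replicate 2. The 5 mesothelial markers were all called higher in the knockout, and their summed level was between 13.7 and 36.5 CPM in WT and between 5373 and 7617 CPM in Atxn7l3-/- MEFs, with none at 0 in any library. None of the 10 macrophage markers was called (edgeR, 1 at an unadjusted p under 0.05), 7 having a fitted change above 0 and 3 below. Their sum was 5591, 2053 and 793 CPM in the knockout libraries against 553 to 1096 CPM in WT. Lyz2 alone made 4691, 1816 and 660 CPM of these knockout sums and was at 314 to 603 CPM in WT. The summed fibroblast markers ranged from 6950 to 38578 CPM in WT and from 16216 to 23013 CPM in the knockout. Of these 10, 3 had a fitted change above 0 and 7 below (median −0.73), and none was called (edgeR). Prrx1 was at 429 to 511 CPM in WT and at 24.3, 5.5 and 312 CPM in the knockout. Pdgfrb was at 193 to 428 against 23.7, 1.82 and 255 CPM, and Dcn at 22.6 to 341 against 1594, 2179 and 653 CPM. The part of such cells in the values of Hmox1, Srxn1, Gsr and the other members was not tested.

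**Figure D3:**
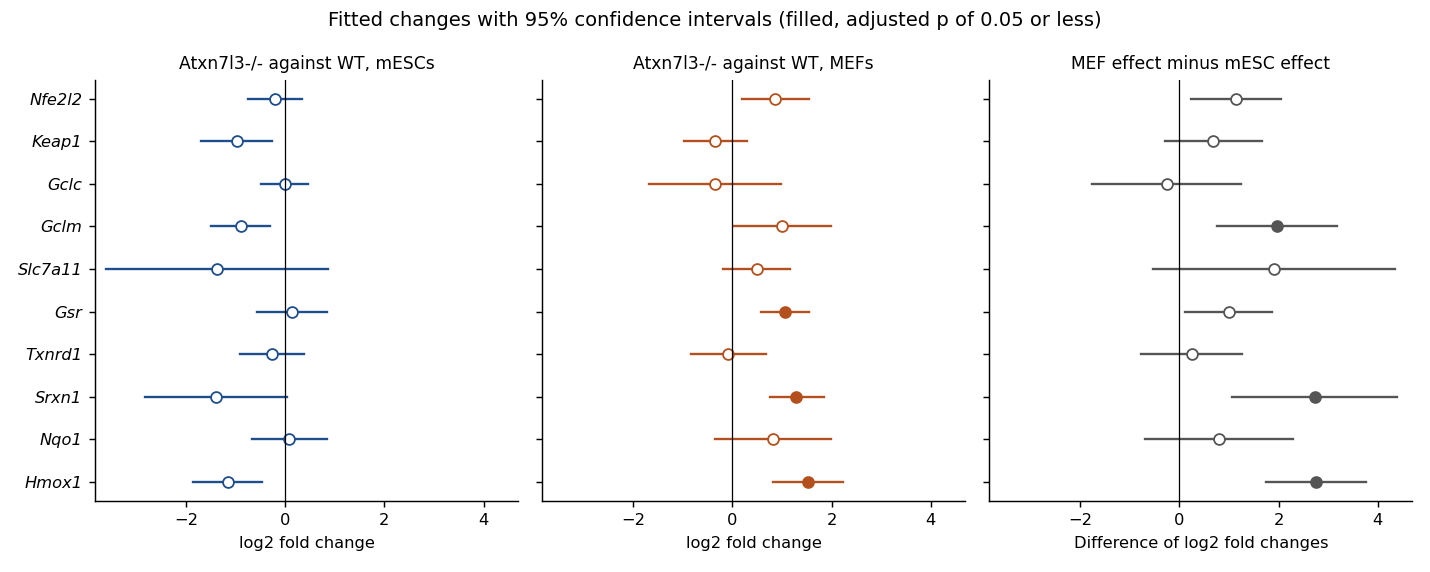
Fitted log2 fold changes of Atxn7l3-/- against WT in mESCs (left) and MEFs (middle), and the difference of these effects, MEF minus mESC (right), for the 10 members. Lines are 95% confidence intervals and filled points have an adjusted p of 0.05 or less. No mESC point is filled, Hmox1, Srxn1 and Gsr are filled in MEFs, and Hmox1, Srxn1 and Gclm are filled for the difference.

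Whether the knockout effect differed between the cell types was tested by an interaction term, with all 11 libraries in 1 model. It differed for 3 of the 10 members, all with a higher effect in MEFs, against 6.14% of the 19326 genes tested called in this direction and 5.27% in the other. No member had a lower effect in MEFs at an unadjusted p under 0.05 (15.8% of all genes). Hmox1 lay on opposite sides of 0. Its fitted change was −1.16 in mESCs and 1.53 in MEFs on the log2 scale, and the difference was 2.75 (standard error 0.46, edgeR adjusted p = 0.00806). For Srxn1, at −1.4 and 1.29 in the separate fits, the difference was 2.73 (standard error 0.75, edgeR adjusted p = 0.0425). For Gclm, at −0.9 and 1, it was 1.97 (standard error 0.55, edgeR adjusted p = 0.0433). Gsr, called in MEFs, had a difference of 0.99 (95% confidence interval 0.11 to 1.87, edgeR adjusted p = 0.121), and Nfe2l2 one of 1.14 (interval 0.24 to 2.04, adjusted p = 0.0889). Slc7a11 had a difference of 1.9 with a wide interval (−0.54 to 4.34). For Keap1, Nqo1, Gclc and Txnrd1 the intervals held 0, from −1.76 to 1.25 for Gclc to −0.29 to 1.66 for Keap1.

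With the replicate number as a block, Hmox1 kept a difference of 2.55 (edgeR adjusted p = 0.039), while Srxn1 stood at 2.46 (adjusted p = 0.103) and Gclm at 1.76 (adjusted p = 0.127), which left 1 member against 3.18% of all genes, and 1 against 3.02% when the GC correction was added. Without replicate 1 of the WT mESCs, which leaves 1 WT mESC library, the differences were 2.24 for Hmox1, 2.02 for Srxn1 and 1.9 for Gclm. With both WT mESC libraries kept, Hmox1 was called without each of the other libraries. Srxn1 kept its call without replicate 2 of the Atxn7l3-/- mESCs (3.67) or replicate 3 of the Atxn7l3-/- MEFs. It lost the call without any other of these libraries, with edgeR adjusted p of up to 0.0944. Gclm kept its call without either of those or WT MEF replicate 1 and otherwise lost it, with adjusted p of up to 0.0931. The share of all genes called higher, 6.14% with every library, moved as well. It was 7.21% and 7.92% in the fits where Srxn1 kept its call and 2.58% to 6.53% in those where it lost it. Without replicate 2 of the Atxn7l3-/- mESCs, Slc7a11 passed as well, with a difference of 3.91 (edgeR adjusted p = 0.00589), and Nfe2l2 passed without replicate 3 of the Atxn7l3-/- MEFs (1.34, adjusted p = 0.0424).

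Around these members, 84 further genes were grouped by role. They are partners and relatives of NRF2, glutathione enzymes, thioredoxins and peroxiredoxins, NADPH-producing enzymes, heme and iron genes, detoxifying enzymes, superoxide dismutases with catalase, and ATF4 stress-response genes. These lists were chosen with earlier results of these data known. Their counts beside the shares of all genes are therefore a description and not an independent test. In Atxn7l3-/- mESCs, 6 of the 82 tested were higher and 1 was lower (edgeR adjusted p of 0.05 or less), against 3.08% and 3.88% of all genes, and their median log2 fold change was 0.21 against 0.04 over all genes. Ephx1, microsomal epoxide hydrolase, rose from 56.9 ± 11.4 to 212 ± 29.3 CPM (SD, n = 2 and 3), a log2 fold change of 1.9 (adjusted p = 0.0211). The glutathione S-transferase gene Gstm1 rose from 37.8 ± 5.2 to 153 ± 26.6 CPM (2.02, adjusted p = 0.0211) and Gstm2 from 13.5 ± 1.62 to 32.2 ± 7.32 CPM (1.26, adjusted p = 0.0454). Gstm1 and Gstm2 are close paralogs, so the counts of each are uncertain. Gss, glutathione synthetase, which acts after the ligase of Gclc and Gclm, rose from 72.2 ± 14.1 to 160 ± 23.8 CPM (1.15, adjusted p = 0.0322). Blvrb, a biliverdin reductase downstream of heme breakdown, rose by 1.49 (adjusted p = 0.0231) and Maff, a small MAF partner of NRF2, by 1.79 (adjusted p = 0.0367). Slc40a1, which encodes the iron exporter ferroportin, fell from 35 ± 12.2 to 3.33 ± 1.53 CPM (−3.4, adjusted p = 0.0211). Without either WT library edgeR called no gene of the table, Atxn7l3 included, and without replicate 1 of the knockout it called 3, so the loss of these calls there says nothing about single genes. As libraries were left out, the log2 fold change ranged from 1.7 to 2.11 for Ephx1, from 1.88 to 2.17 for Gstm1, from 0.97 to 1.36 for Gss and from −3.79 to −3 for Slc40a1. In 1 fit of all 11 libraries Gstm1, Gstm2, Blvrb and Maff were at adjusted p between 0.0592 and 0.139.

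In Atxn7l3-/- MEFs, 6 of the 81 tested were higher and 3 were lower, against 5.01% and 4.39% of all genes, and the median log2 fold change was 0.15 against −0.06 over all genes. Nfe2l3, a relative of Nfe2l2, rose from 0.83 ± 0.37 to 40.1 ± 9.5 CPM (SD, n = 3 each), a log2 fold change of 5.6 (edgeR adjusted p = 0.0057). The microsomal glutathione S-transferase gene Mgst1 rose from 49.5 ± 19.5 to 515 ± 167 CPM (3.38, adjusted p = 0.0117). These calls of Nfe2l3 and Mgst1 held without each library in turn. Mgst2 (2.67, adjusted p = 0.0377), G6pdx, the entry enzyme of the pentose phosphate pathway and a source of NADPH for Gsr and Txnrd1 (1.21, adjusted p = 0.0273), and Fech, which inserts iron into heme (1.05, adjusted p = 0.0436), also rose, as did Gstm2 (2.15, adjusted p = 0.0288), which was called higher in both cell types. The glutathione S-transferase gene Gstt1 (−3.32, adjusted p = 0.0456), the secreted peroxidase gene Gpx3 (−2.76, adjusted p = 0.0481) and Sod3, the extracellular superoxide dismutase (−1.59, adjusted p = 0.0456), fell. The calls of Mgst2, Gstm2, G6pdx, Fech, Gstt1, Gpx3 and Sod3 were each lost without 4 or more of the single libraries, replicate 1 of the WT MEFs among them, with adjusted p of up to 0.13. With the replicate block, Mgst2 (0.054) and Gpx3 (0.0532) were not called, and with the GC correction none of the 3 lower genes was (Gpx3 0.0563, Gstt1 0.0657, Sod3 0.0631). None of the 13 thioredoxin and peroxiredoxin genes or of the 9 ATF4 genes was called in either cell type (edgeR). At an unadjusted p under 0.05, 3 of the former passed in either cell type, 2 higher and 1 lower, against 29.8% of all genes in mESCs and 32.4% in MEFs. Of the ATF4 genes 4 passed in each, 2 higher and 2 lower in mESCs and all 4 lower in MEFs.

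**Figure D4:**
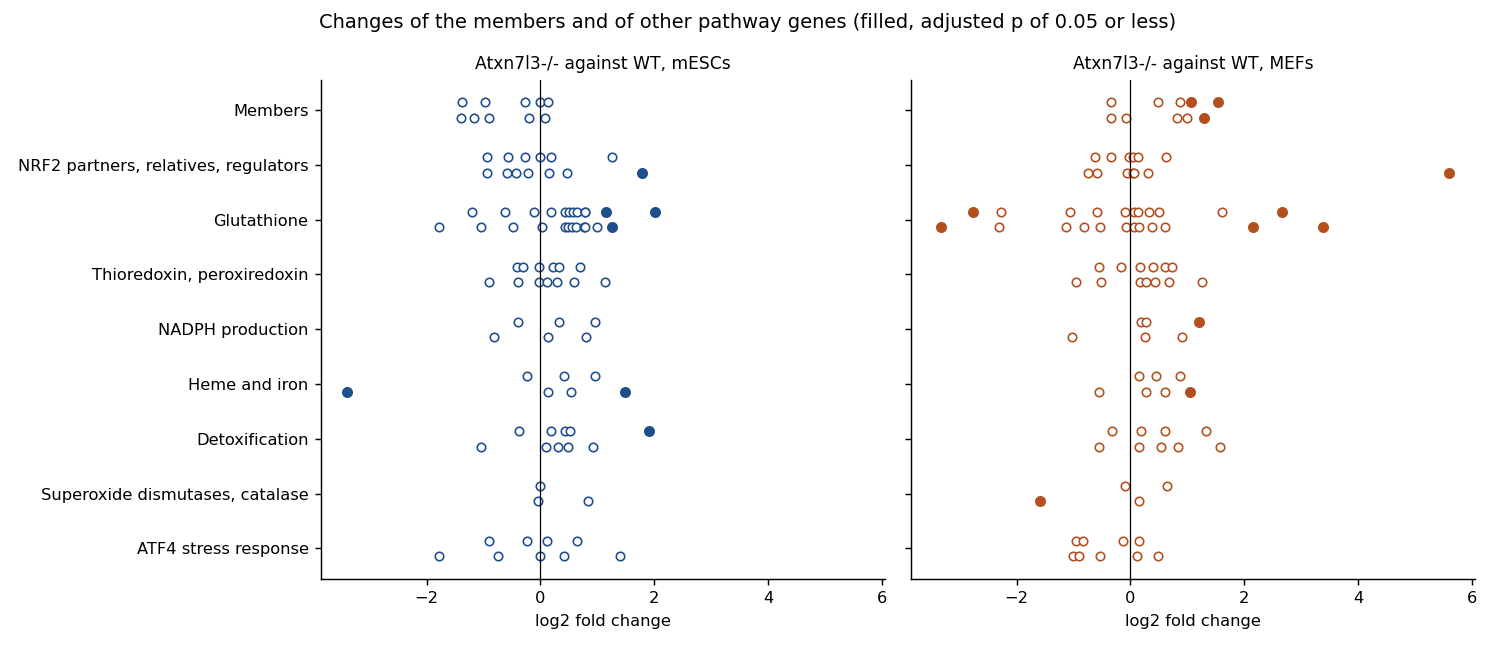
Log2 fold changes of Atxn7l3-/- against WT in mESCs (left) and MEFs (right) for the members and 8 lists of other pathway genes, 1 point a gene. Filled points have an adjusted p of 0.05 or less, which 0 members and 7 other genes have in mESCs and 3 members and 9 other genes in MEFs.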

How the data were processed

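Counts per gene, the counts divided by a DESeq2 size factor per library (normalized signal) and that signal per kb of median transcript length were deposited by the authors, 1 table per cell type. They used cutadapt 1.10, STAR 2.5.3a (mm10), HTSeq 0.6.1p1 and DESeq2 1.16.1 per the labels. The median transcript length in the same tables was used as the authors' value, and other deposited columns, which hold the authors' log2 fold changes and p-values, were not used. One WT mESC dataset that the paper left out was not analysed here.

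Raw counts were filtered (filterByExpr), normalized by TMM and tested with edgeR 4.0.16 (quasi-likelihood test) in R 4.3.3, each cell type separately, and in 1 fit of all 11 libraries, over genes of both tables, for the interaction and the WT comparison. Benjamini-Hochberg adjustment ran over all genes tested, and genes at 0.05 or less were called. All 10 members are described, Atxn7l3, and of other lists up to 2 called genes per direction. Gss in mESCs, Gstm2 in MEFs, Lyz2, single fibroblast markers, the sex-linked genes and the overlapping genes were named after their values were seen. Members and lists were chosen with earlier results of these data known. The settings varied were the normalization (RLE, upper quartile), the filter (none, or 10 counts in every library), DESeq2 1.42.0, a replicate block, a GC correction (lowess span 0.3) without and with the block, the study's selection (2-fold and more than 10 normalized reads per kb) and leaving out each library. Fits were tested on simulated data. P-values measure the spread between lines or cultures of separate embryos.

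Same-numbered WT and Atxn7l3-/- MEF libraries deviated together from their group means (r = 0.473, 0.161 and 0.24 across genes), a pairing seen in the data and not stated in the labels, while the 2 mESC pairs did not (0.00777 and −0.172). Exons and GC content came from GENCODE M21, and figures were drawn with Python 3.11.15 and matplotlib 3.10.9.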

Additional observations from a re-analysis of the deposited data

Results flagged for a closer look

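The effect of the Atxn7l3 knockout differed between MEFs and mESCs, by the interaction test in 1 fit of all 11 libraries, for 3 of the 10 members, against 6.14% of all genes in this direction, and for Atxn7l3 itself. The difference of log2 fold changes, MEF minus mESC, was 2.75 for Hmox1, 2.73 for Srxn1 and 1.97 for Gclm (edgeR adjusted p = 0.00806, 0.0425 and 0.0433). With the replicate block Hmox1 alone was called, and Srxn1 and Gclm were at 0.103 and 0.127. All 3 knockout mESC libraries of Hmox1 and Gclm were below both WT libraries, as for 25.1% of all genes. All 3 knockout MEF libraries of Hmox1 and Srxn1 were above all 3 WT libraries, as for 20.0% of all genes. The groups overlapped for Srxn1 in mESCs and for Gclm in MEFs. For Atxn7l3 the difference was 5.97 (edgeR adjusted p = 0.000664), the libraries labelled Atxn7l3-/- keeping more of it in MEFs than in mESCs.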

How the results depend on the processing

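As single libraries were left out, which leaves 1 WT mESC library assumed to vary like the others, the number of members called lower in Atxn7l3-/- mESCs ranged from 0 to 4, that of other pathway genes called higher from 0 to 11 and lower from 0 to 4, and the log2 fold changes of Gclc from −0.18 to 0.18, of Gsr from −0.09 to 0.38, of Nqo1 from −0.25 to 0.51 and of Txnrd1 from −0.54 to 0.05. The share of all genes called lower moved with these counts, up to 6.75%. In MEFs, where the share of all genes called higher went from 0.731% to 5.90%, 0 to 3 members were called higher, 2 to 8 other pathway genes higher and 0 to 5 lower, with Gclc from −0.73 to 0.22 and Txnrd1 from −0.33 to 0.22. For the difference between cell types, 0 to 4 members and 1 to 8 other genes were called higher and 0 to 7 other genes lower, with Gclc from −0.68 to 0.29 and Txnrd1 from −0.06 to 0.53. Between the WT cell types, 0 to 2 members and 12 to 23 other genes were called higher, with Gclc from −0.37 to 0.60, Gclm from −0.43 to 0.07, Hmox1 from −0.40 to 0.49 and Srxn1 from −0.66 to 0.53. The counts for the difference and between the WT cell types include the fits that leave 1 WT mESC library. The shares of all genes given next leave those fits out, so the low ends of the counts cannot be set against them. With both WT mESC libraries kept, the share of all genes called for the difference went from 2.58% to 7.92% higher and from 2.06% to 8.33% lower. Between the WT cell types the share called higher then went from 24.1% to 27.2%. For the other settings the cause of a change was not tested. In mESCs, members called lower numbered 4 with no filter, 1 with the GC correction and 3 by DESeq2. Other pathway genes called higher, 6 as reported, numbered 11 with no filter, 11 with the replicate block, 11 by DESeq2 and 2 in 1 fit of all 11 libraries, and those called lower, 1 as reported, numbered 6, 2 with the block, 2 with GC correction and block, and 2 by DESeq2. Gclc stood at 0.00 with no filter. In MEFs, 1 member was called higher with GC correction and replicate block. Other pathway genes called higher numbered 12 by DESeq2 and 10 in 1 fit, and lower 0 with the GC correction, 1 with GC correction and block, 7 by DESeq2 and 5 in 1 fit. Of all genes, 5.48% were called higher by DESeq2 and 7.83% in 1 fit. Those called lower were 3.23% with the GC correction, 5.53% with GC correction and block, 7.96% by DESeq2 and 10.6% in 1 fit. Txnrd1 turned to 0.00 with the block and 0.06 with GC correction and block, and Keap1 to 0.40 and 0.42 with the GC correction without and with the block. For the difference between cell types, 1 member was called with the block and 1 with GC correction and block. Other genes called higher numbered 6 by DESeq2, and lower 3 with no filter, 3 with the GC correction, 1 with GC correction and block and 12 by DESeq2. The shares of all genes were 7.71% higher by DESeq2, and lower 3.09%, 3.52%, 2.81% and 8.44% in the same order of settings. Between the WT cell types, 0 members were called higher (edgeR) with upper-quartile normalization, no filter, the block or either GC correction, against 19.3% to 28.5% of all genes. There Hmox1 turned to 0.10 with the block, 0.06 with the GC correction and 0.20 with both, and Gclm to 0.04 with both. The mESC replicate numbers did not pair the libraries (r = 0.00777 and −0.172), and the block moved the count of all genes called there from 1238 to 1435. Over all genes, 2995 were called in mESCs with no filter, 3425 by DESeq2 and 446 in 1 fit. In MEFs 1501 were called as reported, 846 with 10 counts in every library, 3958 by DESeq2 and 3569 in 1 fit, and for the difference 2205 as reported, 1381 with the block, 1127 with GC correction and block and 4264 by DESeq2. The depth, at which 3 counts are 0.0563 to 0.0938 CPM, did not limit any member.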
